A study of Homo sapiens with 8 samples.

Results

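The genes described here are 43 components of the endoplasmic reticulum (ER) that fold, translocate, cleave, glycosylate or discard secretory and membrane proteins. They were chosen by symbol from a written list and cover 6 roles: 9 lumenal chaperones and cochaperones, 6 lectin chaperones and disulfide isomerases, 7 factors of ER-associated degradation, 9 subunits of the translocon and its associated proteins, 5 signal peptidase subunits and 7 oligosaccharyltransferase subunits. All 43 were found, 1 row each, among the 60592 gene rows of the deposited tables. A gene was tested where at least 2 of the 8 libraries held at least 1 FPKM, where FPKM is a level per length of gene model, scaled to the size of the library. By that filter 42 of the 43 stood among the 12063 rows tested. The exception was DERL3, a derlin of ER-associated degradation, with 0.330 and 0.303 FPKM in FDX1-OE ES, 0.503 and 0.359 in control ES, 0.477 and 0.732 in FDX1-OE DMSO, and 1.01 and 0.614 in control DMSO.

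RNA was sequenced from WSU-DLCL2, an established line of diffuse large B-cell lymphoma. Cells overexpressing FDX1 (FDX1-OE) or control cells, labelled wild type, were kept for 48 h with 15 nM elesclomol (ES) or with the solvent DMSO, and each of the 4 groups (FDX1-OE ES, control ES, FDX1-OE DMSO, control DMSO) held 2 libraries. FDX1 encodes an electron-carrying ferredoxin of mitochondria, and elesclomol is a copper ionophore. The promoter that drives FDX1, whether the overexpressing line is 1 clone, and whether control cells carry an empty vector are not given in the sources used here. Separate cultures are not stated for the 2 libraries within each group, so the p-values reflect the scatter of these libraries alone, and that scatter may be technical.

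Proteins bound for secretion enter the ER through the SEC61 channel, lose their signal peptide, receive N-linked glycans and fold with the help of the Hsp70 chaperone BiP (HSPA5), the Hsp90 chaperone GRP94 (HSP90B1), the lectins calnexin and calreticulin and the protein disulfide isomerases. Unfolded protein engages the sensors IRE1 (ERN1), ATF6 and PERK (EIF2AK3). Through the transcription factors XBP1, ATF6 and ATF4 this unfolded protein response raises many of the genes listed here, and B-lineage cells draw on it when they secrete antibody.

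The promoters of 6 members are shown because they carry the ER stress elements through which this response is known to act on chaperone genes, and because their transcripts differed in how they stood between the ES groups, some lower, 1 higher and 1 not called. Each line holds the 250 bases before the RefSeq start on the gene's own strand, 5′ to 3′, in assembly GRCh38.p14. Capitals mark matches to ERSE (CCAAT and, after 9 bases of any kind, CCACG), to ERSE-II (ATTGG and, after 1 base, CCACG) and, in HYOU1, to an UPRE (TGACGTGG) that overlaps its first ERSE-II, on either strand. The windows are chr9:125241344-125241593 (minus) for HSPA5, chr22:21642052-21642301 (plus) for SDF2L1, chr12:103930160-103930409 (plus) for HSP90B1, chr19:12938359-12938608 (plus) for CALR, chr11:119057206-119057455 (minus) for HYOU1 and chr16:56931892-56932141 (plus) for HERPUD1.
HSPA5: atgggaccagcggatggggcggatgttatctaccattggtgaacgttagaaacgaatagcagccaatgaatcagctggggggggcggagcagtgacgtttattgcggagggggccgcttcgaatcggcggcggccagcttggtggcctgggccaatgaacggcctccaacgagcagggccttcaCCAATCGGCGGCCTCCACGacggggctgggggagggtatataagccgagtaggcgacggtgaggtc
SDF2L1: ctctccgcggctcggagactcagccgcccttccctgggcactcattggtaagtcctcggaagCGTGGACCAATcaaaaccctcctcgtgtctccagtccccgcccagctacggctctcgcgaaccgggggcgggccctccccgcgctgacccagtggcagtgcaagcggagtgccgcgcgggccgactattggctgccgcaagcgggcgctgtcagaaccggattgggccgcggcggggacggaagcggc
HSP90B1: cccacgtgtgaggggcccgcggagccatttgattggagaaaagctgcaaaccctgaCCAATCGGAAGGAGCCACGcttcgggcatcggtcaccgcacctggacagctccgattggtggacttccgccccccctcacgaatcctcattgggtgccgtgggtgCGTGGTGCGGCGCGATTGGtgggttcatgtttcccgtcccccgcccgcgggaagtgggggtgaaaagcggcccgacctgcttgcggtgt
CALR: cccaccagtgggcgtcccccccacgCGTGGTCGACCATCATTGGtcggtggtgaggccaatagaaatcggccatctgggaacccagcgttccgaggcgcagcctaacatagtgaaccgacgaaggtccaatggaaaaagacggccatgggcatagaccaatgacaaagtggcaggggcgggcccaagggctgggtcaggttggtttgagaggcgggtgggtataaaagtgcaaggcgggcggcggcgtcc
HYOU1: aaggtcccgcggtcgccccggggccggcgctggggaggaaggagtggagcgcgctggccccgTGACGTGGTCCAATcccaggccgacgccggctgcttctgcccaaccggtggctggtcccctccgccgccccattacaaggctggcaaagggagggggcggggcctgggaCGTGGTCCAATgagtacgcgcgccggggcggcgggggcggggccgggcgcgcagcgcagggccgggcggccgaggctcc
HERPUD1: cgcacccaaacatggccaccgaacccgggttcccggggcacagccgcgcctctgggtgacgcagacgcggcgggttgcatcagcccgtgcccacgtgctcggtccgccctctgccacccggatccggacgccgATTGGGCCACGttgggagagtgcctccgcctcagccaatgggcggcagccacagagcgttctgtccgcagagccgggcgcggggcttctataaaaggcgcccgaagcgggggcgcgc

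The overexpression was visible in all 4 FDX1-OE libraries: FDX1 had 60.7 and 59.4 FPKM in FDX1-OE ES, 9.88 and 10.0 in control ES, 59.8 and 56.0 in FDX1-OE DMSO, and 10.8 and 10.4 in control DMSO. The FDX1-OE ES libraries stood apart from the other 6. Their values summed to 408018 and 403024 FPKM against 445716 to 451027, the mRNAs of the mitochondrial genome held 14.7% and 11.9% of the sum against 16.9% to 17.6%, and the median absolute log2 difference between replicates was 0.165 against 0.075 to 0.0876. All 8 B-cell markers found in the files reached 1 FPKM in at least 2 libraries, with the lowest sums in FDX1-OE ES (1520 to 1560 FPKM, against 1680 to 1730 elsewhere). These sums were not divided by the library totals, which were also lowest in FDX1-OE ES. Of 6 plasma cell markers 4 reached 1 FPKM in at least 2 libraries, while SDC1 and PRDM1 stayed at or below 0.429 FPKM. That list summed to 200 to 223 FPKM in FDX1-OE ES, against 209 to 221 in the other groups. None of 8 T and NK cell, 6 myeloid and 6 epithelial and fibroblast markers reached 1 FPKM in at least 2 libraries. The summed levels of those 3 lists were nevertheless highest in FDX1-OE ES: T and NK cell markers reached 0.897 to 0.932 FPKM there, 0.168 to 0.170 in control ES, 0.0243 to 0.0283 in FDX1-OE DMSO and 0.0319 to 0.151 in control DMSO, with CD3D, CD3G, CD2 and KLRD1 at 0 throughout. Myeloid markers summed to 1.13 to 1.64 FPKM in FDX1-OE ES, against at most 0.688 in any other library, with FCGR1A at 0 throughout. CD68 made up most of that sum, at 0.760 and 1.01 FPKM in FDX1-OE ES, whereas CD14 was at 0 in both FDX1-OE ES libraries and above 0 in the other 6. The list of epithelial and fibroblast markers summed to 0.734 to 0.884 FPKM in FDX1-OE ES, against at most 0.367, with EPCAM and COL1A2 at 0 in the other 6 libraries. The part of these differences in the results below was not tested.

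In FDX1-OE cells given ES, BiP and 5 further chaperones and isomerases (SDF2L1, MANF, HSP90B1, CALR and PDIA4) and the translocon components SSR4 and SEC61B fell relative to control cells given ES. On the deposited scale P4HB, 4 degradation factors (DERL1, DERL2, SEL1L and HERPUD1), the signal peptidase subunits SEC11A and SEC11C and the oligosaccharyltransferase subunits STT3B and RPN1 rose. Of 42 members tested, 17 were called (9 higher and 8 lower) at a Benjamini-Hochberg adjusted p below 0.05 by limma, which is 40.5% of them. Of all 12063 genes tested 41.5% were called, 31.1% higher and 10.4% lower, against 21.4% and 19.0% of the members. The median member had a log2 fold change of -0.02, against 0.16 over all genes tested. Every fold change is on the scale of log2(FPKM + 1), which understates changes of low genes, and in bulk RNA fewer cells that express a gene and less RNA per cell cannot be told apart. The direction of the smaller changes depended on how libraries were scaled. When each library was divided by the median ratio of its genes to their geometric means, the median of all genes stood at -0.02. The median member then stood at -0.22, and 0 members were called higher and 19 lower. With that scaling 1601 of all 12063 genes were called higher and 2560 lower (34.5% called). Because direction depended on the scaling, the called changes are also given relative to the median gene. The count of 17 fell without any 1 of the control ES and DMSO libraries, and the share of all genes called fell in the same fits. The balance of directions depended on the FDX1-OE ES library kept. More members were called lower than higher without replicate 1 of that group, and more higher than lower without its replicate 2. Among all genes most calls were higher in both of these fits.

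**Figure D1:**
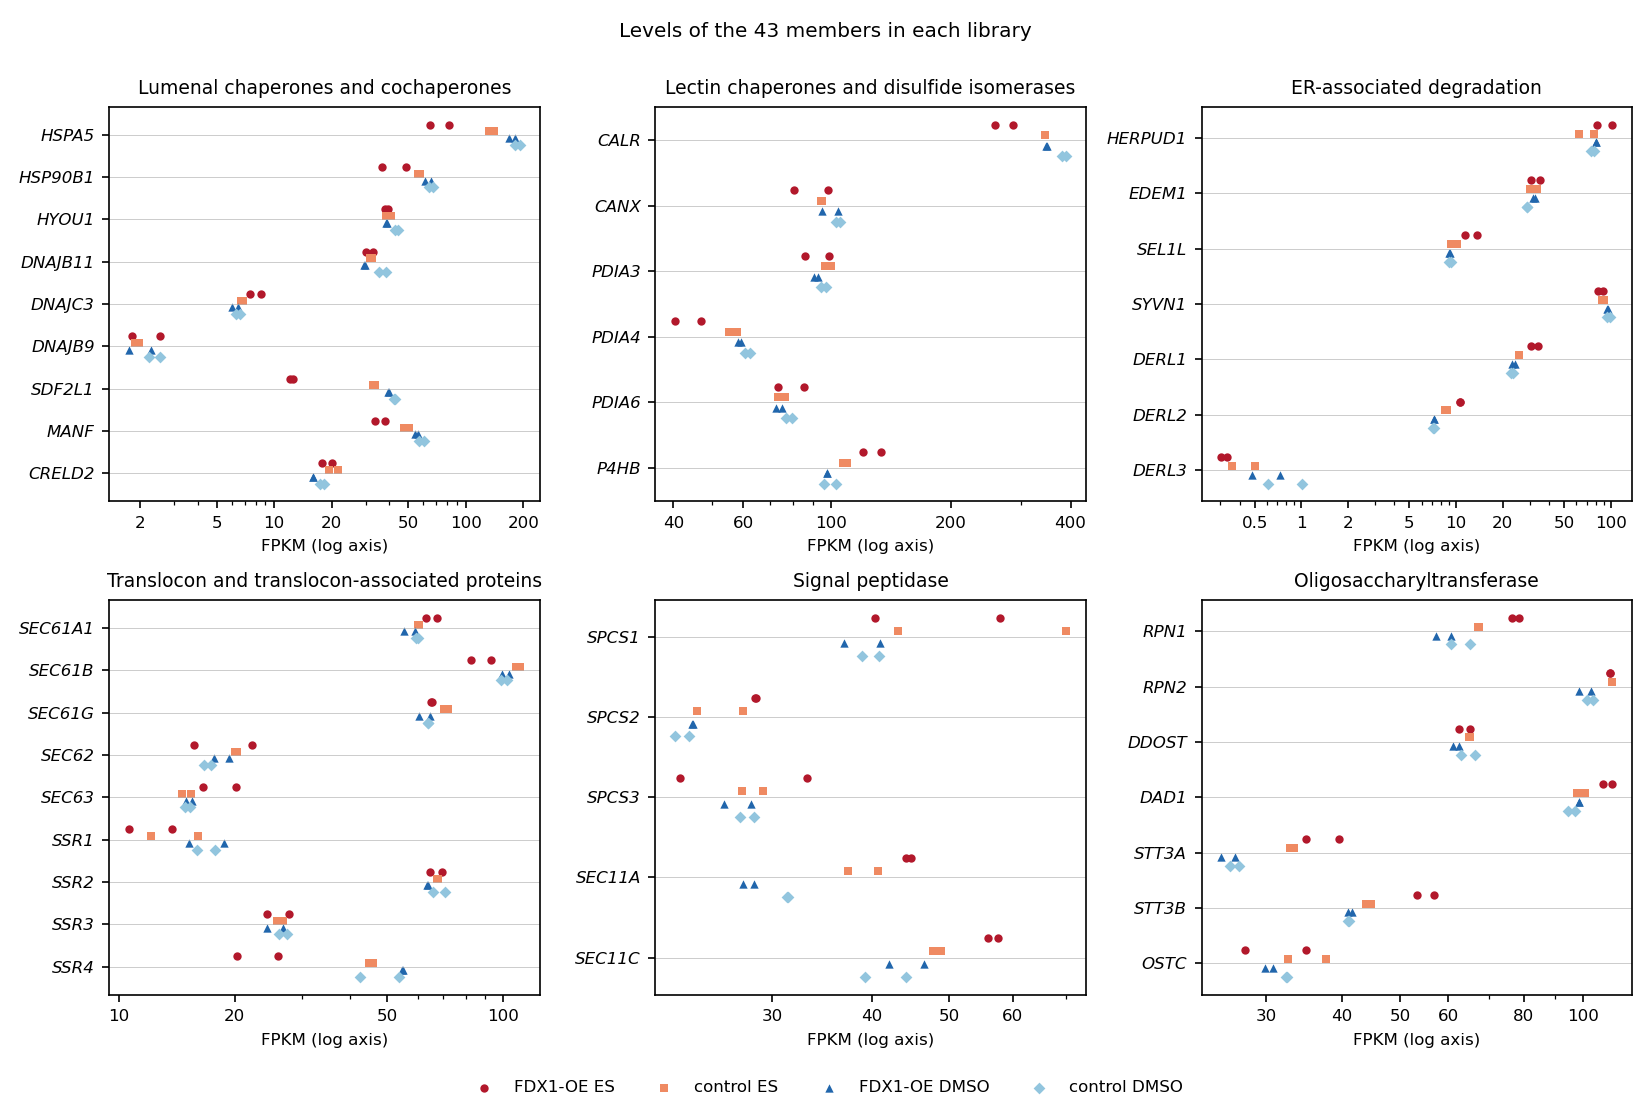
FPKM of the 43 members in each of the 8 libraries, on log axes, in 6 panels by role. Points are single libraries of FDX1-OE ES, control ES, FDX1-OE DMSO and control DMSO, in that order within each gene's row. HSPA5, SDF2L1, MANF, HSP90B1, CALR, PDIA4, SSR4, SEC61B and DERL3 have both FDX1-OE ES libraries below the other 6 libraries, and DERL3 lies at or below 1.01 FPKM in all 8.

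Among the 9 lumenal chaperones and cochaperones, 4 fell in FDX1-OE ES relative to control ES (HSPA5, HSP90B1, SDF2L1 and MANF), 0 rose and 5 were not called. Those 4 are 44.4% of the role, against 10.4% of all genes called lower in this comparison, and so small a list is described here by its counts only. The FPKM of all 9 lumenal members summed to 280.5 and 247 in FDX1-OE ES, against 379 and 373 in control ES, 435 and 415 in FDX1-OE DMSO, and 469.8 and 451 in control DMSO. HSPA5, the master ER Hsp70, had 82.1 and 65.1 FPKM in FDX1-OE ES, 139.9 and 132 in control ES, 180.03 and 168 in FDX1-OE DMSO, and 193 and 180.2 in control DMSO. The groups did not overlap and stood in that order. Its log2 fold change between FDX1-OE ES and control ES was -0.89 ± 0.10 (SE; adjusted p = 0.000781), or -1.04 relative to the median gene. It ranked 2 of 43 by FPKM in control ES and in both DMSO groups, and 12 in FDX1-OE ES.

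SDF2L1, a partner of ER Hsp40 proteins that keeps clients from aggregating, had 12.1 and 12.6 FPKM in FDX1-OE ES, 32.9 and 33.6 in control ES, 39.3 and 39.6 in FDX1-OE DMSO, and 42.1 and 42.9 in control DMSO. Here too the groups did not overlap, and both FDX1-OE ES libraries were far below the rest. The change was -1.36 ± 0.06 (adjusted p = 2.15e-05; -1.52 relative to the median gene), with a ratio of mean FPKM of 0.371. MANF, a stress-inducible ER protein that binds BiP, had 38.0 and 33.7 FPKM in FDX1-OE ES, 47.5 and 50.4 in control ES, 56.5 and 54.4 in FDX1-OE DMSO, and 60.6 and 56.9 in control DMSO. Again no groups overlapped, and the change was -0.44 ± 0.08 (adjusted p = 0.00333; -0.60 relative to the median gene). HSP90B1, the ER Hsp90, had 49.1 and 36.7 FPKM in FDX1-OE ES, 56.5 and 57.5 in control ES, 66.2 and 61.5 in FDX1-OE DMSO, and 64.3 and 67.2 in control DMSO. FDX1-OE ES was lowest and the DMSO groups overlapped. The change was -0.42 ± 0.12 (adjusted p = 0.0238; -0.57 relative to the median gene), and this call was lost without control ES replicate 1 (adjusted p = 0.0932) or control ES replicate 2 (adjusted p = 0.0955), whereas those of HSPA5, SDF2L1 and MANF held without any single library.

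The other lumenal members did not pass the test. HYOU1, the ER Hsp110 that exchanges nucleotide on BiP, averaged 38.5 ± 1.14 FPKM in FDX1-OE ES and 39.5 ± 1.48 in control ES (SD, n = 2 each), a log2 fold change of -0.04 ± 0.06 (adjusted p = 0.651). The BiP cochaperones DNAJB11 and DNAJC3 and the BiP-binding DNAJB9 had values of -0.02, 0.21 and 0.11, and CRELD2, a stress-induced ER protein, had -0.10. In DNAJB11, 23.2% of exonic bases are shared with other annotated genes, and the handling of strands is not given, so its value is less certain.

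The 6 lectin chaperones and disulfide isomerases were split, with CALR and PDIA4 lower (33.3%, against 10.4% of all genes), P4HB higher (16.7%, against 31.1%) and 3 not called. CALR, the lectin chaperone calreticulin and the most abundant member in every group, had 287 and 259 FPKM in FDX1-OE ES, 344 and 345 in control ES, 348 and 348 in FDX1-OE DMSO, and 390.3 and 382 in control DMSO. No groups overlapped. Its change was -0.34 ± 0.06 (adjusted p = 0.00418; -0.49 relative to the median gene), and -0.19 with an adjusted p of 0.0526 after quantile normalisation. PDIA4, a thioredoxin-fold disulfide isomerase, had 46.9 and 40.3 FPKM in FDX1-OE ES, 57.9 and 55.3 in control ES, 59.1 and 58.1 in FDX1-OE DMSO, and 60.5 and 62.2 in control DMSO. It too showed no overlap and fell by 0.37 on the log2 scale (SE 0.08, adjusted p = 0.00717, or 0.056 without control ES replicate 1; -0.53 relative to the median gene). P4HB, the classical protein disulfide isomerase, had 120.2 and 133 FPKM in FDX1-OE ES, 107 and 109.7 in control ES, 97.3 and 97.6 in FDX1-OE DMSO, and 96.0 and 102 in control DMSO. FDX1-OE ES was highest and the DMSO groups overlapped. The change was 0.22 ± 0.07 (adjusted p = 0.0289; 0.07 relative to the median gene), a call lost without any 1 of FDX1-OE ES replicate 2, the control ES libraries and the FDX1-OE DMSO libraries (adjusted p 0.0548 to 0.141). CANX, the membrane lectin calnexin, and the isomerases PDIA3 and PDIA6 had -0.09, -0.09 and 0.07. PDIA3 and PDIA6 share 33.3% and 25.2% of their exonic bases with other genes.

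**Figure D2:**
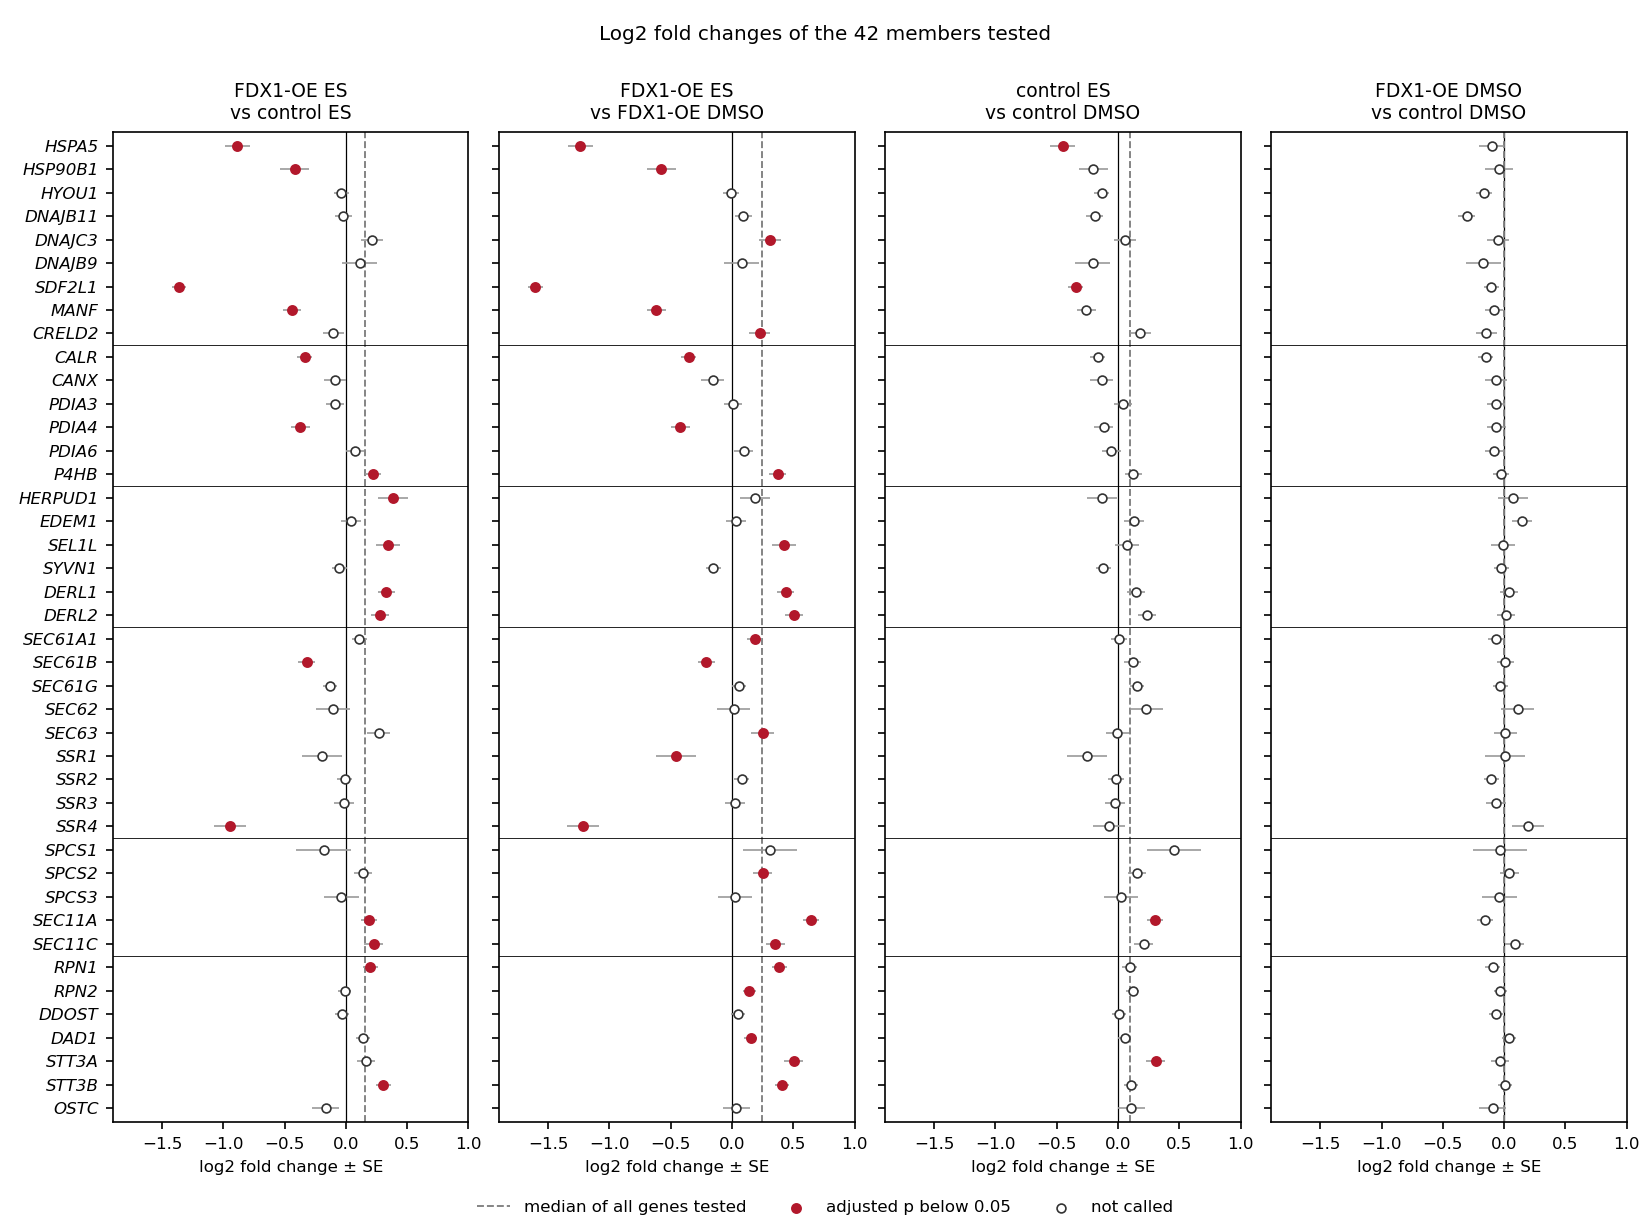
Log2 fold changes of the 42 members tested, with SE bars, in 4 comparisons. Filled points have an adjusted p below 0.05 by limma, and the dashed line is the median of all genes tested. In FDX1-OE ES vs control ES, SDF2L1 (-1.36), SSR4 (-0.95) and HSPA5 (-0.89) lie farthest to the left, and no point is filled in FDX1-OE DMSO vs control DMSO.

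In ER-associated degradation, 4 of 6 tested members rose on the deposited scale, 0 fell and 2 were not called, although none of the 4 was called under median-ratio scaling. The 4 are 66.7% of the role, against 31.1% of all genes called higher. DERL1, a derlin that helps to move misfolded proteins out of the ER, had 34.1 and 30.4 FPKM in FDX1-OE ES, 25.4 and 25.4 in control ES, 24.003 and 23.1 in FDX1-OE DMSO, and 22.5 and 23.3 in control DMSO. Its FDX1-OE ES libraries were the highest and the DMSO groups overlapped (0.33 ± 0.07, adjusted p = 0.00893; 0.17 relative to the median gene). DERL2, its paralog, had 10.7 and 10.6 FPKM in FDX1-OE ES, 8.45 and 8.72 in control ES, 7.16 and 7.25 in FDX1-OE DMSO, and 7.21 and 7.06 in control DMSO. The order was the same as for DERL1 (0.28 ± 0.07, adjusted p = 0.0175; 0.12 relative to the median gene).

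SEL1L, the adaptor of the ubiquitin ligase HRD1, had 13.7 and 11.5 FPKM in FDX1-OE ES, 9.29 and 10.1 in control ES, 9.14 and 9.07 in FDX1-OE DMSO, and 9.35 and 8.98 in control DMSO. FDX1-OE ES stood above 6 libraries that overlapped in part (0.34 ± 0.10, adjusted p = 0.0234; 0.18 relative to the median gene). HERPUD1, a membrane scaffold of the same ligase, had 103 and 81.7 FPKM in FDX1-OE ES, 62.7 and 77.7 in control ES, 80.5 and 79.9 in FDX1-OE DMSO, and 74.3 and 78.4 in control DMSO. Its lower FDX1-OE ES library was only just above the FDX1-OE DMSO libraries (0.39 ± 0.12 against control ES, adjusted p = 0.0355; 0.23 relative to the median gene). SYVN1, which is HRD1 itself, and EDEM1, a mannosidase-like lectin, had -0.05 and 0.04. The call for DERL1 was lost without control ES replicate 1 (adjusted p = 0.0528), that for DERL2 without control ES replicate 1 (0.0978) or 2 (0.0581), that for SEL1L without FDX1-OE ES replicate 1 (0.0649) or control ES replicate 1 (0.136) or 2 (0.0524), and that for HERPUD1 without any 1 of 6 libraries, namely FDX1-OE ES replicate 1 (0.148), control ES replicate 1 (0.224) and the 4 DMSO libraries (0.0521 to 0.0573).

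Of the 9 translocon subunits and associated proteins, SSR4 and SEC61B fell (22.2%, against 10.4% of all genes), 0 rose and 7 were not called. SSR4 encodes the delta subunit of the translocon-associated protein (TRAP) complex, which assists the insertion and glycosylation of some clients. It had 26.03 and 20.3 FPKM in FDX1-OE ES, 45.9 and 44.7 in control ES, 55.0 and 54.5 in FDX1-OE DMSO, and 53.6 and 42.5 in control DMSO. FDX1-OE ES was the lowest by far, and the control DMSO libraries lay on both sides of control ES. The change was -0.95 ± 0.13 (adjusted p = 0.00144; -1.104 relative to the median gene), and the call held without any single library. The other TRAP subunits SSR1, SSR2 and SSR3 had -0.19, -0.01 and -0.01 and were not called. In SSR4, 6.06% of exonic bases are shared with another gene.

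SEC61B, the beta subunit of the channel, had 82.4 and 93.1 FPKM in FDX1-OE ES, 108 and 111 in control ES, 103 and 99.4 in FDX1-OE DMSO, and 98.9 and 102 in control DMSO. FDX1-OE ES was lowest, control ES highest, and the DMSO groups overlapped. The change was -0.32 ± 0.07 (adjusted p = 0.00832; -0.48 relative to the median gene), and it was not called without control ES replicate 2 (adjusted p = 0.0515) or with equal FPKM totals (-0.18, adjusted p = 0.0673). The pore-forming SEC61A1 and the small SEC61G had 0.11 and -0.13. SEC63, which recruits BiP to the channel, had 20.1 and 16.6 FPKM in FDX1-OE ES, 14.6 and 15.4 in control ES, 14.9 and 15.5 in FDX1-OE DMSO, and 15.3 and 14.9 in control DMSO. Only FDX1-OE ES stood apart in SEC63, and its difference from control ES (0.27 ± 0.09) narrowly missed the threshold (adjusted p = 0.0501). SEC62, its partner, had -0.10.

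In signal peptidase, which removes signal peptides, both catalytic subunits rose (SEC11A and SEC11C) and the 3 accessory subunits were not called. This share of 40% higher stands beside 31.1% of all genes. SEC11C had 55.9 and 57.5 FPKM in FDX1-OE ES, 47.7 and 48.9 in control ES, 46.5 and 42.02 in FDX1-OE DMSO, and 44.2 and 39.2 in control DMSO. SEC11A had 44.8 and 44.1 FPKM in FDX1-OE ES, 37.3 and 40.7 in control ES, 27.6 and 28.5 in FDX1-OE DMSO, and 31.3 and 31.4 in control DMSO. In both genes FDX1-OE ES was highest and control ES next, and in SEC11A no groups overlapped. Their changes between FDX1-OE ES and control ES were 0.23 ± 0.08 (adjusted p = 0.0455) and 0.19 ± 0.06 (adjusted p = 0.0487), which are 0.07 and 0.03 relative to the median gene, and SEC11A stood at -0.021 under median-ratio scaling. The SEC11C call was lost without any 1 of the 4 ES and 2 FDX1-OE DMSO libraries (adjusted p 0.0571 to 0.179) and the SEC11A call without any 1 of 7 libraries, all but FDX1-OE ES replicate 2 (0.055 to 0.276). SPCS2 had 28.6 and 28.5 FPKM in FDX1-OE ES, 24.2 and 27.6 in control ES, 23.9 and 23.8 in FDX1-OE DMSO, and 22.7 and 23.6 in control DMSO. The groups did not overlap, but the difference from control ES did not pass (0.14 ± 0.07, adjusted p = 0.161). SPCS3 had -0.04 and SPCS1 had -0.18, and SPCS1 shares 58.1% of its exonic bases with other genes.

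The oligosaccharyltransferase transfers the preassembled glycan to nascent chains, and 2 of its 7 subunits, STT3B and RPN1, rose while 5 were not called. That is 28.6% higher, near the 31.1% of all genes called higher, so the count shows nothing particular to the complex. The summed level of the complex was 493 and 479 FPKM in FDX1-OE ES, 455 and 458 in control ES, 414 and 422 in FDX1-OE DMSO, and 433 and 419.6 in control DMSO. STT3B, the catalytic subunit of the post-translational form, had 56.9 and 53.4 FPKM in FDX1-OE ES, 44.0 and 44.8 in control ES, 41.0 and 41.6 in FDX1-OE DMSO, and 41.2 and 41.1 in control DMSO. FDX1-OE ES was highest, control ES next, and the DMSO groups overlapped (0.31 ± 0.06, adjusted p = 0.00537; 0.15 relative to the median gene). Under median-ratio scaling the value was 0.10 and was not called (adjusted p = 0.238).

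RPN1, the ribophorin I subunit, had 76.5 and 78.4 FPKM in FDX1-OE ES, 67.4 and 67.2 in control ES, 57.4 and 60.6 in FDX1-OE DMSO, and 65.1 and 60.7 in control DMSO. The groups did not overlap, and control DMSO stood above FDX1-OE DMSO. The change between FDX1-OE ES and control ES was 0.20 ± 0.06 (adjusted p = 0.0314; 0.04 relative to the median gene), the value was -0.0095 under median-ratio scaling, and the call was lost without any 1 of the control ES and FDX1-OE DMSO libraries (adjusted p 0.054 to 0.123). DAD1, a small structural subunit, had 112 and 108 FPKM in FDX1-OE ES, 101 and 97.996 in control ES, 98.5 and 98.6 in FDX1-OE DMSO, and 97.1 and 94.7 in control DMSO. FDX1-OE ES was highest and the other groups lay close together, without passing the test (0.14 ± 0.05, adjusted p = 0.0672). STT3A, the cotranslational catalytic subunit, had 0.16, and RPN2, DDOST and OSTC had -0.01, -0.03 and -0.16.

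**Figure D3:**
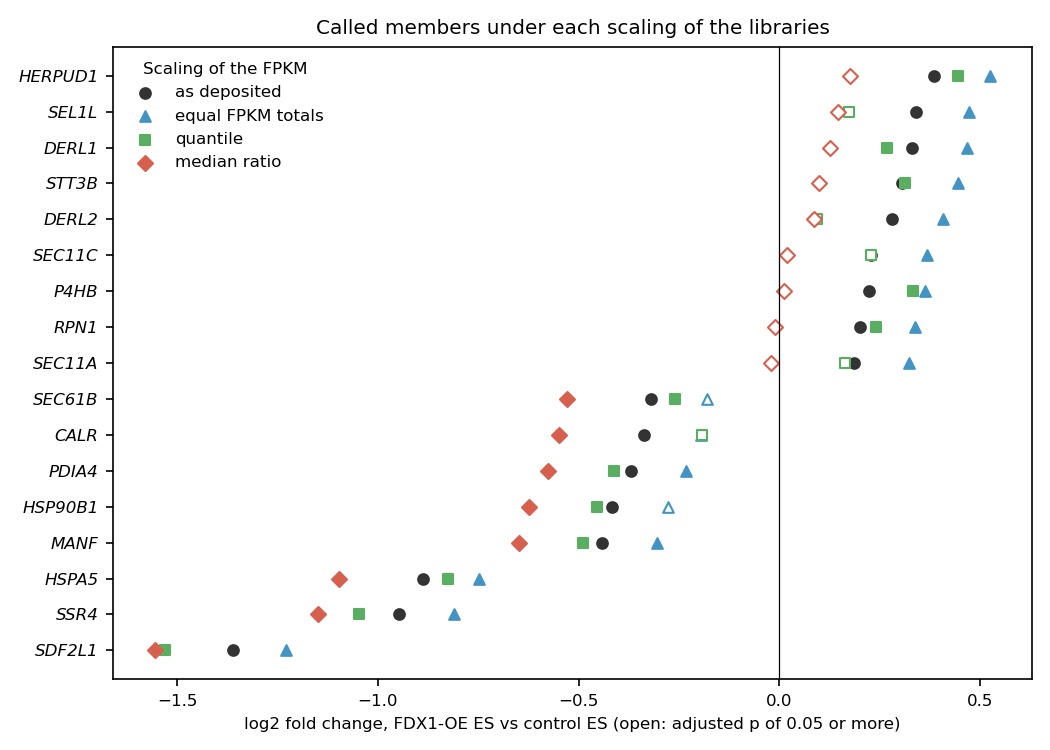
Log2 fold changes between FDX1-OE ES and control ES of the 17 called members under 4 scalings of the libraries. Filled symbols are called and open symbols are not. All 8 members called lower lie below 0 under every scaling, whereas the 9 called higher are all open under median-ratio scaling, where SEC11A (-0.021) and RPN1 (-0.0095) fall just below 0.

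Ratios of a pair of members within 1 library do not depend on its scaling. The pairs were chosen after the values were seen and are a description. HSPA5 over the isomerase PDIA6 was 0.964 and 0.888 in FDX1-OE ES, 1.83 and 1.80 in control ES, 2.49 and 2.23 in FDX1-OE DMSO, and 2.51 and 2.27 in control DMSO. SDF2L1 over DNAJB11 was 0.368 and 0.414 in FDX1-OE ES, 1.04 and 1.03 in control ES, 1.34 and 1.33 in FDX1-OE DMSO, and 1.101 and 1.215 in control DMSO. In each pair both FDX1-OE ES libraries were below the other 6. Between subunits of 1 complex, SSR4 over SSR2 was 0.403 and 0.293 in FDX1-OE ES against 0.679 and 0.663 in control ES, and SEC61B over SEC61A1 was 1.31 and 1.39 in FDX1-OE ES against 1.81 and 1.84 in control ES. STT3B over DDOST was 0.911 and 0.818 in FDX1-OE ES against 0.676 and 0.686 in control ES. SEC11A over SPCS3 did not separate the ES groups, at 1.353 and 1.916 in FDX1-OE ES against 1.354 and 1.391 in control ES.

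With ES against DMSO within FDX1-OE cells, 6 chaperones and isomerases and 3 translocon components fell, and 3 subunits of signal peptidase and 5 of the oligosaccharyltransferase were among those that rose. Of the 42 members, 16 rose and 9 fell in FDX1-OE ES relative to FDX1-OE DMSO (59.5% called), and of all genes 60.8% were called, 47.1% higher and 13.7% lower. This comparison and the previous one share the FDX1-OE ES libraries, so they are not independent. SDF2L1 changed by -1.60 ± 0.06 (adjusted p = 2.18e-06), HSPA5 by -1.24 ± 0.10 (5.54e-05), SSR4 by -1.21 ± 0.13 (0.000147), MANF by -0.62 ± 0.08 (0.000274) and HSP90B1 by -0.58 ± 0.12 (0.00337). PDIA4 changed by -0.42 ± 0.08 (adjusted p = 0.002) and CALR by -0.35 ± 0.06 (0.0015). SSR1, the TRAP alpha subunit, changed by -0.45 ± 0.16 (0.0393), a call lost without FDX1-OE ES replicate 2 (0.205), FDX1-OE DMSO replicate 1 (0.219) or either control DMSO library (0.0512 and 0.0513). SEC61B changed by -0.21 ± 0.07 (0.0294), a call lost without any 1 of 5 libraries, namely FDX1-OE ES replicate 1, the FDX1-OE DMSO libraries and the control DMSO libraries (adjusted p 0.0508 to 0.15).

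On the other side, SEC11A rose by 0.65 ± 0.06 (adjusted p = 0.000118), STT3A by 0.50 ± 0.08 (0.00072), DERL2 by 0.50 ± 0.07 (0.000623), DERL1 by 0.44 ± 0.07 (0.00122), SEL1L by 0.42 ± 0.10 (0.00568) and STT3B by 0.41 ± 0.06 (0.000635). RPN1, P4HB and SEC11C rose by 0.39, 0.37 and 0.35. The remaining 7, DNAJC3, SPCS2, SEC63, CRELD2, SEC61A1, DAD1 and RPN2, rose by 0.14 to 0.31 on the deposited scale (adjusted p 0.0159 to 0.0499), but DNAJC3 stood at -0.0096 after quantile normalisation and the other 6 stood below 0 under median-ratio scaling. Their calls also depended on single libraries. DNAJC3 was not called without FDX1-OE ES replicate 1 (0.0524) or FDX1-OE DMSO replicate 2 (0.097), and SPCS2 not without either FDX1-OE DMSO library (0.081 and 0.0856). DAD1 and RPN2 were not called without any 1 of the 6 libraries other than FDX1-OE ES, SEC63 without any 1 but FDX1-OE ES replicate 2, CRELD2 without any 1 but FDX1-OE ES replicate 1, and SEC61A1 without any 1 but FDX1-OE ES replicate 1 and FDX1-OE DMSO replicate 1 (0.0541 to 0.263 over these 5). The all-gene median of this comparison was 0.25 on the deposited scale and -0.04 under median-ratio scaling. With that scaling SEC11A and DERL2 were the 2 members called higher and 23 were called lower. Of all 12063 genes 2740 were then called higher and 3645 lower. Relative to the median gene SEC11A stood at 0.40 and STT3A and DERL2 at 0.26.

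In control cells 4 members changed with ES. HSPA5 fell by 0.45 (SE 0.10, adjusted p = 0.0388) and SDF2L1 by 0.34 (SE 0.06, adjusted p = 0.0191) in control ES relative to control DMSO, while SEC11A rose by 0.30 ± 0.06 (adjusted p = 0.0325) and STT3A by 0.31 ± 0.08 (adjusted p = 0.0469). These were 4 of 42 members (9.52%), against 7.74% of all genes, 6.74% higher and 1.00% lower. Each of these 4 calls was lost without any 1 of the 4 libraries compared. Those of HSPA5, SEC11A and STT3A were also lost without either FDX1-OE DMSO library. The count of 4 fell in all those fits, and it rose without either FDX1-OE ES library. The share of all genes called moved the same way. Libraries outside the comparison matter because the fit shares 1 estimate of spread over all 4 groups. Under median-ratio scaling, which set the median gene at -0.02 against 0.09 on the deposited scale, 0 members were called higher and 7 lower. Of all 12063 genes 432 were then called higher and 498 lower. MANF had -0.26 (adjusted p = 0.0758) and HSP90B1 -0.20 (adjusted p = 0.3).

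**Figure D4:**
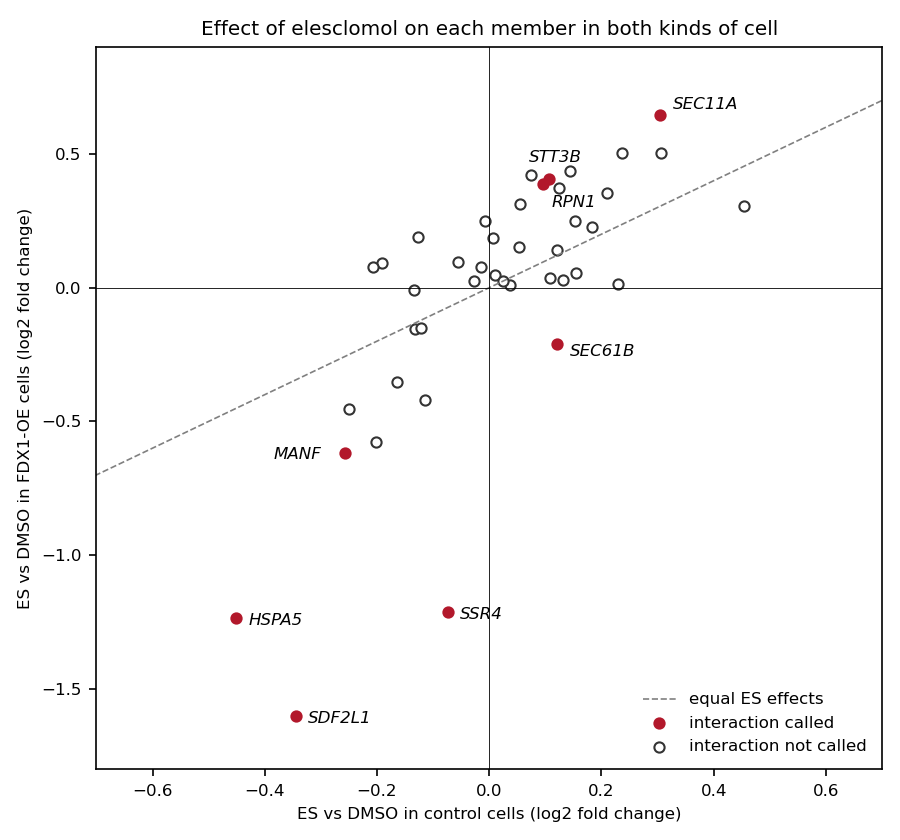
Log2 fold change of each of the 42 members with ES in FDX1-OE cells (vertical axis) against that in control cells (horizontal axis). Filled points are the 8 members whose effects differed at an adjusted p below 0.05, and the dashed line marks equal effects. SDF2L1 (-1.60 and -0.34), HSPA5 (-1.24 and -0.45) and SSR4 (-1.21 and -0.07) lie far below the line, and SEC11A (0.65 and 0.30) lies highest.

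The difference between the ES effects, the effect in FDX1-OE cells minus that in control cells, was called for 8 of 42 members (19.0%), 3 higher and 5 lower, against 19.0% of all genes, 13.9% higher and 5.06% lower. The 5 lower were SDF2L1 (-1.26 ± 0.08, adjusted p = 0.000453), SSR4 (-1.14 ± 0.18, 0.00805), HSPA5 (-0.79 ± 0.15, 0.0123), MANF (-0.36 ± 0.11, 0.0496) and SEC61B (-0.33 ± 0.10, 0.0494). The 3 higher were SEC11A (0.34 ± 0.09, 0.0372), STT3B (0.30 ± 0.08, 0.0422) and RPN1 (0.29 ± 0.09, 0.0499), and under median-ratio scaling none of these 3 was called. The SDF2L1 and SSR4 calls held without any single library. That of HSPA5 was lost without control ES replicate 1 (-0.75, adjusted p = 0.0559), FDX1-OE DMSO replicate 1 (-0.73, 0.0542) or control DMSO replicate 2 (-0.74, 0.0502). Those of MANF, SEC61B, SEC11A, STT3B and RPN1 were lost without any 1 of the 6 libraries other than FDX1-OE ES (adjusted p 0.0539 to 0.184). The count of 8 was 2 or 3 without any 1 of those 6 libraries, 13 without FDX1-OE ES replicate 1 and 14 without FDX1-OE ES replicate 2.

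Without ES, FDX1 overexpression changed no member by limma: 0 of 42 were called in FDX1-OE DMSO relative to control DMSO, 4 had an unadjusted p below 0.05, and among all genes 0.00829% were called and 420 of 12063 had an unadjusted p below 0.05. All 15 chaperones, cochaperones and isomerases had a log2 fold change below 0, between -0.31 and -0.03, against 49.7% of all genes below 0. Both FDX1-OE DMSO libraries were below both control DMSO libraries in 10 of these 15 and in 16 of the 42 members (38.1%), against 19.5% of all genes. DNAJB11 had the lowest value, with 29.3 and 29.8 FPKM in FDX1-OE DMSO against 38.2 and 35.3 in control DMSO (-0.31 ± 0.07, adjusted p = 0.999). These genes share the same 4 libraries, so the count does not measure replication.

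Several regulators of the unfolded protein response, among them XBP1, EIF2AK3 and TRIB3, rose in FDX1-OE ES, where BiP fell. Of 14 sensors, transcription factors and feedback genes tested from a list of 15, 8 rose and 0 fell in FDX1-OE ES relative to control ES, with a median of 0.33 against 0.16 over all genes. The 8 are 57.1% of the list, against 31.1% of all genes called higher. ERN1 is 1 of these 8, and it passed the filter only through FDX1-OE ES, where it was high. Under median-ratio scaling 5 rose and 0 fell, beside 1601 and 2560 of all 12063 genes. Fewer than 8 were called without either control ES library. XBP1 had 11.5 and 11.5 FPKM in FDX1-OE ES, 6.50 and 7.52 in control ES, 6.81 and 8.12 in FDX1-OE DMSO, and 7.69 and 7.998 in control DMSO (0.64 ± 0.10 between the ES groups, adjusted p = 0.00253). Both FDX1-OE ES libraries were above the other 6. These values count all XBP1 transcripts, and the spliced form cannot be told apart from the unspliced one in gene-level values. ERN1, the IRE1 kinase and nuclease that splices XBP1, had 1.45 and 1.45 FPKM in FDX1-OE ES, 0.867 and 0.671 in control ES, 0.840 and 0.689 in FDX1-OE DMSO, and 0.850 and 0.657 in control DMSO. Only in FDX1-OE ES did ERN1 reach 1 FPKM, so the filter admitted it through the group where it was high. Its test (0.47 ± 0.12, adjusted p = 0.0171, or 0.35 and 0.0613 under median-ratio scaling) is therefore given as a description only.

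ATF6 had 6.76 and 7.03 FPKM in FDX1-OE ES, 5.46 and 5.67 in control ES, 4.63 and 4.95 in FDX1-OE DMSO, and 4.76 and 4.71 in control DMSO. Its ES groups lay above both DMSO groups, and it rose by 0.27 ± 0.08 in FDX1-OE ES relative to control ES (adjusted p = 0.033), against 0.08 under median-ratio scaling, which was not called (adjusted p = 0.464). ATF4, the effector of the PERK branch, had 319.6 and 387 FPKM in FDX1-OE ES, 292 and 304 in control ES, 234 and 249 in FDX1-OE DMSO, and 260.4 and 241 in control DMSO, and its difference between the ES groups did not pass (0.24 ± 0.09, adjusted p = 0.0658). DDIT3, the proapoptotic factor CHOP, had 6.05 and 6.12 FPKM in FDX1-OE ES, 5.93 and 5.25 in control ES, 8.60 and 8.46 in FDX1-OE DMSO, and 9.12 and 5.39 in control DMSO. Its difference between the ES groups did not pass (0.11 ± 0.18, adjusted p = 0.667). TRIB3 and PPP1R15B, which act downstream of and against PERK signalling, rose by 0.68 ± 0.12 and 0.51 ± 0.08 (adjusted p = 0.00431 and 0.00267), and PPP1R15A and EIF2AK3 rose by 0.62 and 0.51 (adjusted p = 0.00613 and 0.00688). All 4 were called under median-ratio scaling too, at 0.31 to 0.47. PPP1R15A had 44.3 and 52.7 FPKM in FDX1-OE ES, 32.5 and 29.9 in control ES, 39.7 and 36.1 in FDX1-OE DMSO, and 45.7 and 36.1 in control DMSO. Its FDX1-OE ES libraries thus overlapped control DMSO, and control ES was lowest. In TRIB3, PPP1R15B and EIF2AK3 both FDX1-OE ES libraries were above all others.

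**Figure D5:**
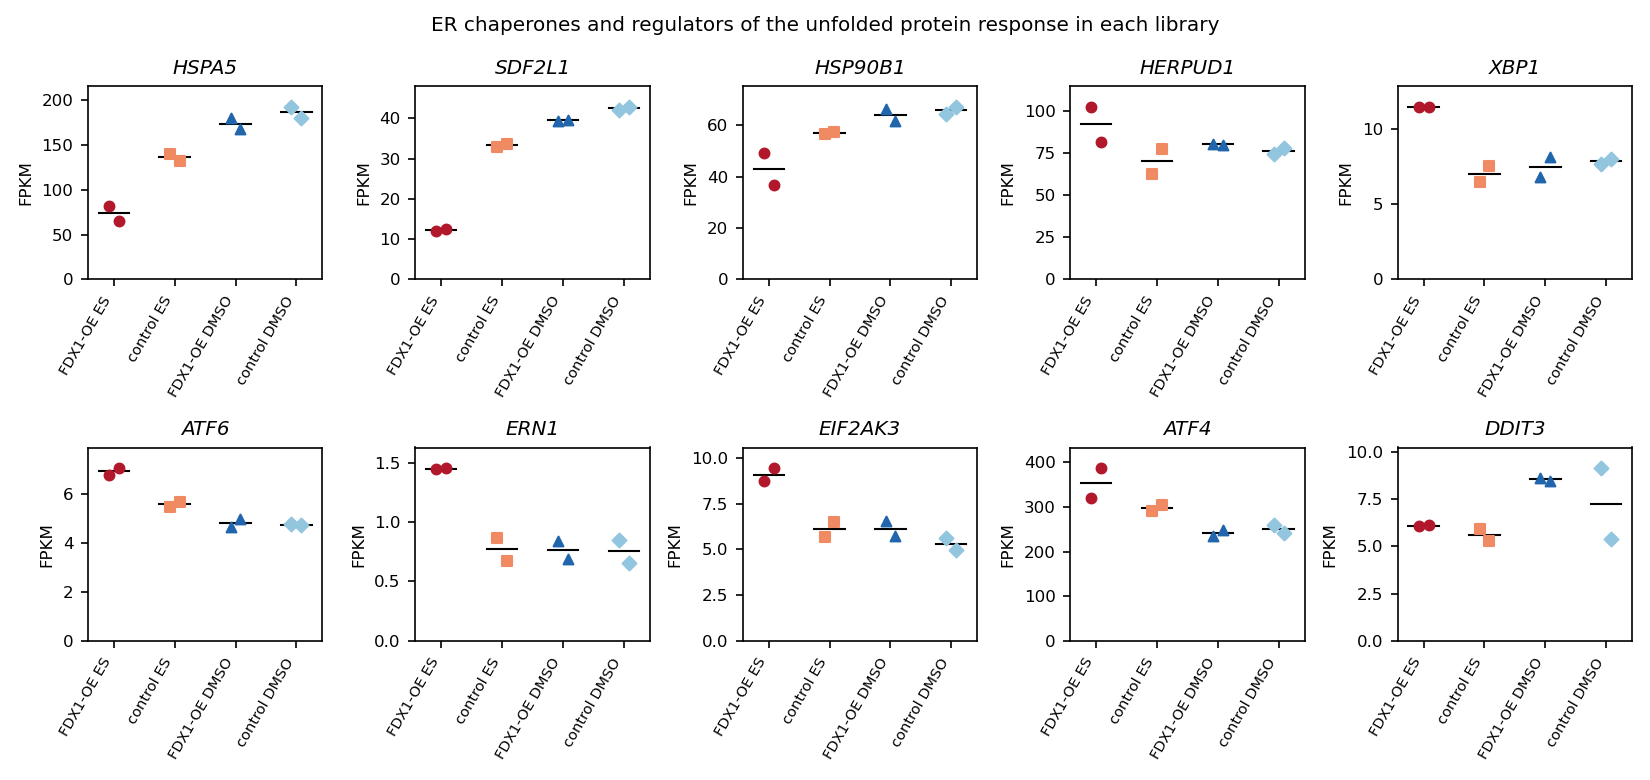
FPKM of 4 members (HSPA5, SDF2L1, HSP90B1 and HERPUD1) and 6 regulators of the unfolded protein response in each library. Points are libraries, black lines are group means of 2 libraries, and axes start at 0. HSPA5, SDF2L1 and HSP90B1 are lowest in FDX1-OE ES, where XBP1, ATF6, ERN1 and EIF2AK3 are highest, while DDIT3 is not.

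Lists of genes next to the module held calls in both directions between FDX1-OE ES and control ES, many of them at shares near those of all genes (31.1% called higher and 10.4% lower). Under median-ratio scaling 1601 of all 12063 genes were called higher and 2560 lower. The share of all genes called was lower without either control ES library and slightly higher without FDX1-OE ES replicate 2. Of 24 other genes of ER-associated degradation, 8 rose and 4 fell (33.3% and 16.7%), or 3 and 9 under median-ratio scaling, and in place of 12 the called genes numbered 5 without control ES replicate 1 and 6 without replicate 2 of that group. FAF2, which recruits the segregase VCP, rose by 0.57 (adjusted p = 0.000823), HERPUD2 by 0.60 (0.00155) and the lectin OS9 by 0.43 (0.00382), and these 3 were also called under median-ratio scaling. Of 14 tested genes of oxidative folding, 2 rose (TMX4 by 0.74 and SELENOM by 0.87, adjusted p = 0.00128 and 0.00285) and 3 fell (14.3% and 21.4%), with 3 called without control ES replicate 1 and 9 without FDX1-OE ES replicate 2. SELENOM had 2.29 and 2.82 FPKM in FDX1-OE ES and reached 1 FPKM elsewhere only in control ES replicate 1. It thus passed the filter only through the group where it was high. ERP29, a chaperone of the isomerase family, changed by -0.34 (adjusted p = 0.00604). Of 16 prolyl isomerases and other folding factors, 5 rose and 4 fell (31.2% and 25%), or 1 and 5 under median-ratio scaling, with 2 called without control ES replicate 1 and 6 without its replicate 2. The ER Hsp40 DNAJC1 rose by 0.72 (adjusted p = 0.00138) and the calcium-binding CALU by 0.42 (0.00458), whereas FKBP11, a prolyl isomerase of secretory cells, changed by -0.72 (0.00643).

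Among 29 genes of targeting and membrane insertion, 4 rose and 2 fell (13.8% and 6.90%), or 1 and 8 under median-ratio scaling, and 11 were called without FDX1-OE ES replicate 2. NCLN and TMEM147, which form 1 complex at the translocon, changed by -0.44 and -0.46 (adjusted p = 0.00218 and 0.0022), and SEC61A2, the paralog of SEC61A1, rose by 0.53 (0.00515). Among 35 tested genes of glycan assembly and trimming, 9 rose and 4 fell (25.7% and 11.4%), or 2 and 6 under median-ratio scaling, with 6 called without control ES replicate 1 and 7 without its replicate 2. TMEM258, a small oligosaccharyltransferase subunit outside the 43, had 15.8 and 19.6 FPKM in FDX1-OE ES against 28.0 and 27.5 in control ES (-0.63, adjusted p = 0.00194). DPAGT1, the first enzyme of the lipid-linked glycan, changed by -0.43 (0.00261), and MPDU1, needed for the use of dolichol-linked sugars, rose by 0.57 (0.00282). Genes of a list are not replicates of the condition, and all lists share the 8 libraries.

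The stress elements shown above occur in few promoters. RefSeq promoter windows, from 250 bases before to 50 after the start, matched 37 of the 43 members by symbol. A member was counted once if any of its windows matched (46 windows for the 37 members). The shares over all genes count single windows instead, with those of the members included, so the units differ. Searched on both strands, ERSE occurred in 6 of the 37 (HSPA5, HSP90B1, CALR, CANX, PDIA6 and CRELD2) and in 0.077% of 35116 windows of the same length over all genes. ERSE-II occurred in 3 (SDF2L1, HYOU1 and HERPUD1) and in 0.054% of windows, and the UPRE letters in 4 (HYOU1, SEC62, SSR3 and SSR4) and in 0.729%. In HSPA5 the match lay at -66 to -48 relative to the start, and in SDF2L1 at -188 to -178. The composite site of ATF4, searched as TGATGNAA, occurred in HERPUD1 alone among members and in 3.617% of all windows.

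Members with an ERSE or ERSE-II match did not move as 1 group. Of the 9, 4 fell in FDX1-OE ES relative to control ES (HSPA5, SDF2L1, HSP90B1 and CALR), 1 rose (HERPUD1) and 4 were not called (HYOU1, CANX, PDIA6 and CRELD2), with values from -1.36 to 0.39 and a median of -0.10. Of the 28 members whose windows hold neither, 5 rose and 4 fell, with a median of -0.01. Of all 12063 genes tested 31.1% were called higher and 10.4% lower, with a median of 0.16. HYOU1 holds ERSE-II at 2 places and the value between the ES groups was -0.04, while SDF2L1 holds it at 1 place and the value was -1.36. A match of letters is a description of the promoter only.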

How the data were processed

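Gene-level RNA-seq values of 8 libraries (4 groups, 2 libraries each) were used as deposited, 1 table per library. The deposited values are FPKM made by the authors, a unit read from the values since no file header names it. HISAT2, HTSeq, R 3.2.0 and build hg19 are named per the submitters' processing notes, without roles. Sequencing depth, strand handling and the program behind the FPKM are not given in the sources used here, so no counting error can be given. Among 60592 rows, 1059 carry a symbol that occurs more than once, 38 of which were tested.

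The 12063 genes that reached 1 FPKM in 2 or more libraries were tested on log2(FPKM + 1) with limma 3.58.1 under R 4.3.3, in 1 fit of all 4 groups with no covariate, which has 4 residual degrees of freedom and 4.25 prior ones. The values as deposited were compared without further scaling. The fit assumes equal spread in the 4 groups, although replicates differed more in FDX1-OE ES (median absolute log2 difference 0.165, against 0.075 to 0.0876). Standard errors and p-values may thus be too small where FDX1-OE ES is compared and too large in the other comparisons. P-values were Benjamini-Hochberg adjusted over all genes tested, with 0.05 as the threshold, and the difference of the ES effects was the interaction of FDX1-OE with ES. The fit was tested on simulated data.

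Values in every library are given for the 3 members of each role with the smallest p between FDX1-OE ES and control ES and for the 6 with the largest change. Of each neighbouring list up to 3 genes with the smallest p are named, and XBP1, ATF4, ATF6, DDIT3 and ERN1 always. PPP1R15A and EIF2AK3 were added after their values were seen. Members, lists and the rule were chosen with earlier results of these data known. Promoters came from RefSeq (GRCh38.p14, 46 windows for 37 members), whose coordinates are not those of the deposited build. Shared exonic bases came from a GRCh38 annotation. The motifs and ratio pairs were chosen after values were seen. Alternatives were the pseudocount, the filter, 3 scalings, the groups fitted, array weights, a replicate block and leaving out each library.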

Additional observations from a re-analysis of the deposited data

Results flagged for a closer look

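The effect of ES differed between FDX1-OE and control cells for 8 members, by a limma interaction test adjusted over all 12063 genes. These are 19.0% of the 42 tested, the same share as the 19.0% of all genes called, and 6 of the 8 calls were lost without some single libraries, all but those of SDF2L1 and SSR4. Each value is the log2 effect in FDX1-OE cells minus that in control cells. It was -1.26 for SDF2L1 (ES effects of -1.60 and -0.34), -1.14 for SSR4 (-1.21 and -0.07), -0.79 for HSPA5 (-1.24 and -0.45), -0.36 for MANF (-0.62 and -0.26) and -0.33 for SEC61B (-0.21 and 0.12). It was 0.34 for SEC11A (0.65 and 0.30), 0.30 for STT3B (0.41 and 0.11) and 0.29 for RPN1 (0.39 and 0.10). SEC61B and SSR4 have partner subunits in the same complexes, SEC61A1 and SSR2, for which the difference was not called.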

How the results depend on the processing

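Of the 17 members called between FDX1-OE ES and control ES, HSPA5, SDF2L1, MANF and SSR4 kept direction and call under all 17 alternatives. The count of called members was 9 with only the groups compared in the fit and 10 with array weights. Of all genes 25.8% and 25.1% were called there, against 41.5% in the main fit. Without 1 library the count moved in either direction. It was lowest without either control ES library, as was the share of all genes called. Under median-ratio scaling SEC11A (-0.021) and RPN1 (-0.0095) changed sign, as did SPCS3 (0.22) without FDX1-OE ES replicate 2. Of the 25 members not called there, 22 changed sign under at least 1 alternative without being called, SEC61A1, DAD1, STT3A, PDIA6 and CANX among them. Within FDX1-OE cells, HSPA5, HSP90B1, CALR, PDIA4, SDF2L1, MANF, DERL2, SSR4 and SEC11A kept their calls under all alternatives. There median-ratio scaling changed the sign of PDIA3 (-0.32), PDIA6 (-0.24), DNAJB11 (-0.24), CRELD2 (-0.094), EDEM1 (-0.30), SEC61A1 (-0.15), SEC61G (-0.28), SSR2 (-0.26), SSR3 (-0.30), SEC63 (-0.070), SPCS2 (-0.077), RPN2 (-0.20), DDOST (-0.29), DAD1 (-0.18) and OSTC (-0.29), quantile normalisation that of DNAJC3 (-0.0096), and leaving out FDX1-OE ES replicate 1 that of SEC62 and SPCS3, whose values without 1 library spanned -0.22 to 0.25 and -0.23 to 0.28. For ES in control cells the count of 4 became 1 without the filter (where 68 of 24728 genes were called, against 934 of 12063). It was 7 under median-ratio scaling (7.71% of all genes called) and 1 after quantile normalisation (1.91%). With only the groups compared it was 8 (13.9%), and with array weights 8 (20.9%). Without 1 library the count moved in either direction, as did the share of all genes called. The 8 members whose ES effects differed became 5 with a pseudocount of 0.1, 4 without the filter, 16 with equal FPKM totals and 2 to 14 without 1 library, where SDF2L1 and SSR4 were called throughout. Of members called between the ES groups, 52.9% were higher on the deposited scale, 0% under median-ratio scaling, 72.7% with equal totals and 46.2% after quantile normalisation. Among all genes called, 75%, 38.5%, 88.8% and 49.1% were higher at the same settings, in that order, so the share moved with that of all genes. Which scaling is nearer to RNA per cell cannot be told, and the cause of these shifts was not tested. In fits without 1 library the lone sample is assumed to vary like the other groups. Libraries share replicate numbers across groups, but same-numbered libraries did not deviate together (r from -0.0499 to 0.0793 over 12063 genes). With the replicate block 16, 21, 3 and 0 members were called in the 4 group comparisons in the order of the fold-change plot, and 3 differed in their ES effects. Of all genes 40.1%, 60%, 5.84% and 0.00829% were called in those comparisons, and 15.9% differed in their ES effects. Depth is not given, so the limit that counting sets on low genes such as DERL3 and ERN1 is unknown.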

Other observations

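Past the ER, genes of transport to and from the Golgi were mostly not called between FDX1-OE ES and control ES. Of 23, 4 rose and 1 fell by limma (17.4% and 4.35%, against 31.1% and 10.4% of all genes), with 2 called without control ES replicate 1, 3 without its replicate 2 and 13 without FDX1-OE ES replicate 2. Under median-ratio scaling 0 rose and 9 fell, beside 1601 and 2560 of all 12063 genes. SEC31A, an outer coat subunit of COPII vesicles, had 47.3 and 46.1 FPKM in FDX1-OE ES, 37.2 and 38.0 in control ES, 34.5 and 34.7 in FDX1-OE DMSO, and 35.6 and 36.3 in control DMSO. FDX1-OE ES was highest, at 0.31 on the log2 scale over control ES (adjusted p = 0.00457), against 0.10 and no call under median-ratio scaling (adjusted p = 0.212). The COPI coat subunits COPA and COPB1 rose by 0.34 and 0.28 (adjusted p = 0.00643 and 0.00826), and neither was called under median-ratio scaling.

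Of 6 immunoglobulin and B-cell receptor genes tested, 1 rose (IGKC), 1 fell (CD79B) and 4 were not called. That is 16.7% higher and 16.7% lower, against 31.1% and 10.4% of all genes, in a list too short to be told apart from that background. CD79B, the signalling partner of the B-cell receptor, had 161 and 179.98 FPKM in FDX1-OE ES, 230.1 and 242 in control ES, 217 and 215 in FDX1-OE DMSO, and 239 and 217 in control DMSO. FDX1-OE ES was the lowest, by -0.47 on the log2 scale relative to control ES (adjusted p = 0.00239). CD79A, with which it pairs, had -0.03, the lambda constant regions IGLC2 and IGLC3 had 0.08 and 0.08 and the joining chain JCHAIN had 0.11, none of them called. IGKC, the kappa light chain constant region, had 569.95 and 661 FPKM in FDX1-OE ES, 480.4 and 490.5 in control ES, 437 and 471 in FDX1-OE DMSO, and 445 and 443 in control DMSO. It rose by 0.34 (adjusted p = 0.0101), against 0.13 and no call under median-ratio scaling (adjusted p = 0.236). IGHM is listed at 0 in all 8 libraries.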
